A study of Homo sapiens with 4 samples.

Results

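The 3′ untranslated region (3′ UTR) is the part of an mRNA between the stop codon and the poly(A) tail. The IGF2BP2 iRIP-seq peaks described here were annotated mainly as 3′ UTR, and their annotation named no coding sequence (CDS). Whether they lay in CDS of another transcript was not checked. A peak was taken when the largest share of its length was annotated as 3′ UTR by the authors and its annotation did not name CDS. The rule found 2501 of 145715 peaks in replicate 1 (1.72%, 95% Wilson interval 1.65 to 1.78) and 2841 of 137934 in replicate 2 (2.06%, 1.99 to 2.14). The mean was 2671 ± 240 peaks (SD, n = 2). Heights, gene content, overlap between replicates and place in the gene did not enter the rule.

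Jurkat cells, an established line from a human T-cell acute lymphoblastic leukemia (T-ALL), were crosslinked with UV light, and RNA bound to IGF2BP2 was pulled down with an anti-IGF2BP2 antibody and sequenced (iRIP-seq). The series holds 2 IGF2BP2 immunoprecipitates and 2 inputs of these cells, with no treatment or genotype named in the labels. The peak list of each immunoprecipitate was used, and the inputs were not analysed here. Nothing in the labels says that the replicates came from separate cultures.

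IGF2BP2 is an RNA-binding protein with RNA recognition motifs and KH domains, and it is known as a reader of N6-methyladenosine (m6A) that stabilizes mRNAs. The 3′ UTR holds many of the sites through which RNA-binding proteins and microRNAs set the stability and translation of an mRNA, and m6A is known to be dense near stop codons and in 3′ UTRs. The consensus of the m6A methyltransferase contains GGAC, and KH domains of IGF2BP proteins bind short CA-rich sequences.

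The lists were checked against cell type markers first. An exonic peak was present in 8 of 9 T-cell markers in each replicate, among them CD3D, CD3E, CD5 and LCK, in 1 of 5 B-cell markers (PAX5 in both) and in 0 of 4 erythroid markers. Of 4 myeloid markers, MPO alone had a peak, in replicate 2 only. Of 4 fibroblast or epithelial markers, 1 had a peak in replicate 1 (COL1A2) and 2 in replicate 2 (COL1A1 and COL1A2). Over all 20056 RefSeq protein-coding genes, 7771 had an exonic peak in either list. How deeply each library was sequenced is unknown. No peak was lower than 4 tags (replicate 1) or 5 tags (replicate 2), and heights were not adjusted to a common depth.

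The letters of the genome were at hand for 23 of the peaks, 8 in replicate 1 and 15 in replicate 2, which lie inside promoter windows of RefSeq (GRCh38.p14). The 3 stretches of 30 bases below are shown because they belong to the 2 loci called in both replicates and to the highest of the other peaks among the 23. Capitals mark GGAN (any base N, so GGAC is included) and ACA on the strand of the peak, written 5′ to 3′, and the motifs can overlap each other. The CEBPB site lies at chr20:50192261-50192290 on the plus strand, in a peak of 7 tags in replicate 1 that overlapped one of 8 tags in replicate 2. The SEPTIN1 site lies at chr16:30378211-30378240 on the minus strand, in peaks of 5.67 and 16 tags. The CREBZF site lies at chr11:85663711-85663740 on the minus strand, in a peak of 10 tags in replicate 1, and no peak of replicate 2 overlapped it.
CEBPB: accgcACAtgcagatggggctcccgcccgt
SEPTIN1: ttcccggcccggggcctgcACAatctccga
CREBZF: gtgGGACAtcttcaccGGACACAtttcaga
The CREBZF stretch holds GGAC more than once, and the CEBPB and SEPTIN1 stretches hold ACA without GGAN. The SEPTIN1 stretch is from the 3′ part of the longer peak of 5.67 tags, whose first 50 nt held GGAC and no ACA. Each shared locus enters the 23 peaks once per replicate. Over the first 50 nt of the 23 peaks, GGAC was found in 7 (30.4%), GGAN in 15 (65.2%), ACA in 11 (47.8%) and a run of 5 T in 1 (4.35%). In 210696 windows of 50 nt from all RefSeq promoters the shares were 17.1%, 60.9%, 41.4% and 5.19%. Only the strand of the transcript was searched, and the 23 peaks are those that happen to lie by a gene start, so the shares are a description of these peaks and not of 3′ UTRs.

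Most of the peaks were low and short, as were those of the whole lists. In replicate 1 the height had a median of 4 tags, a mean of 4.65 and a maximum of 27, and 65.6% of the peaks stood at the lowest listed height, beside 74.3% of all peaks. In replicate 2 the median was 5 tags, the mean 5.95 and the maximum 28, and 56.8% stood at the lowest height, beside 62.6% of all peaks. The shortest length of 51 nt was found in 93.4% and 89.5% of the peaks (97.1% and 94.7% of all peaks), and the longest peaks had 251 and 351 nt. Strands were balanced, with 49.0% and 50.6% of the peaks on the plus strand, and 13 and 12 peaks (0.520% and 0.422%) had a peak of the same library on the opposite strand, beside 1.68% and 2.89% of all peaks.

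In replicate 1, 35 of 2501 3′ UTR peaks were 10 tags high or more (1.40%, 1.01 to 1.94), beside 1.68% of all peaks of that library. This held for 3.20% of the 5843 peaks wholly in CDS and for 6.05% of the 1751 5′ UTR peaks without CDS. In replicate 2 it held for 101 of 2841 3′ UTR peaks (3.56%, 2.93 to 4.30), beside 5.97% of all peaks, 9.20% of 7040 CDS peaks and 13.3% of 2158 5′ UTR peaks. Peaks in the 3′ UTR were thus less often high than those of the other mRNA regions in both libraries. The difference from CDS peaks was -1.80 percentage points in replicate 1 (two-sided Fisher's exact test, adjusted p = 1.38e-06) and -5.65 in replicate 2 (adjusted p = 2.17e-24). By the same exact test, the difference from 5′ UTR peaks was -4.65 points (adjusted p = 2.16e-16) and -9.70 points (adjusted p = 8.90e-37). These tests compare peaks within a library, which share their source, and not conditions.

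The annotation was almost always 3′ UTR alone, in 2423 peaks of replicate 1 and 2726 of replicate 2. The others named intron as well (70 and 104 peaks, plus 1 in replicate 2 with intron and noncoding exon), 5′ UTR (5 and 3) or noncoding exon (3 and 7). In 8 peaks of each library the 3′ UTR share was tied with another region. Just outside the rule were 208 and 247 peaks whose largest share was 3′ UTR but which also named CDS. These stood at a median of 5 and 6 tags, and 32.2% and 29.1% of them met a same-strand peak in the other list. Just inside, the tied peaks had medians of 5 and 5.5 tags, and 2 of 8 were overlapped in each library.

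The label was checked against gene models. Of the 3′ UTR peaks, 1917 and 2232 lay in exactly 1 RefSeq protein-coding gene of known strand. Their median place was 95.4% of the way from the 5′ to the 3′ end of the gene in both replicates, 79.3% and 79.7% of them lay within 5000 nt of the 3′ end, and 67.7% and 68.5% in the last part beyond 90% of the gene's length. CDS peaks had medians of 62.2% and 62.5%, and 5′ UTR peaks of 1.51% and 1.44%. A minority of the 3′ UTR peaks, 143 (7.46%) and 153 (6.85%), lay nearer the 5′ end than the 3′ end. The 78 and 115 peaks that also named another region were further from the 3′ end, with median places of 58.3% and 64.7% over the 56 and 89 that could be placed. Of these 78 and 115 peaks, 48.7% (37.9 to 59.6) and 38.3% (29.9 to 47.4) met a peak in the other list, beside 13.3% (12 to 14.7) and 11.2% (10.02 to 12.4) of those that named 3′ UTR alone.

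**Figure D1:**
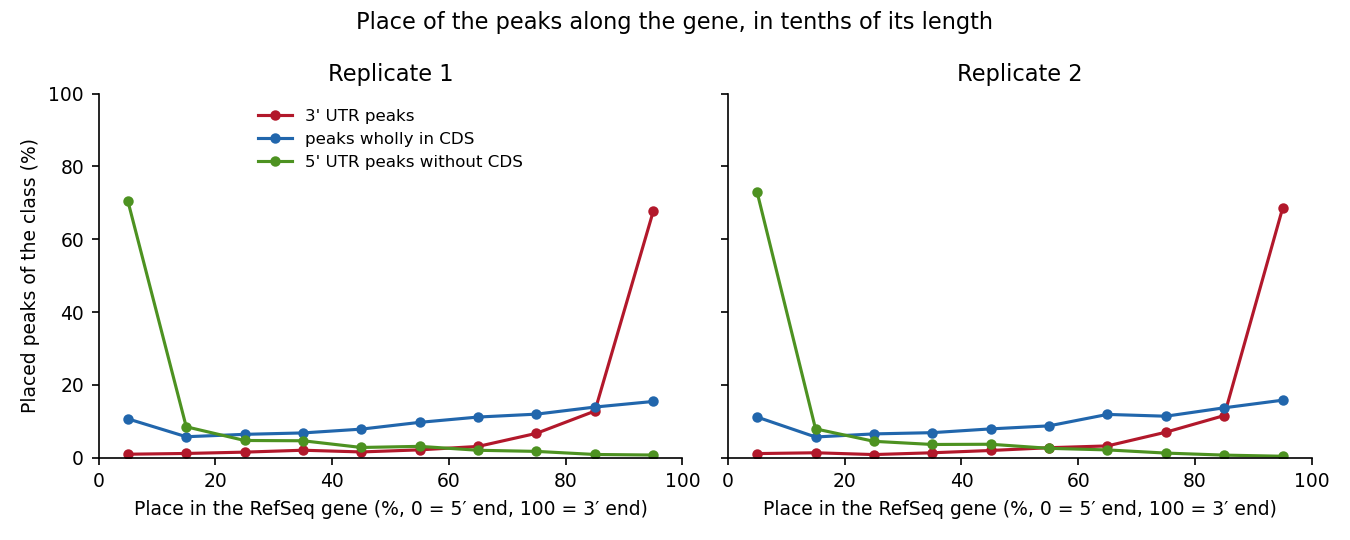
Place of the peaks along the RefSeq gene that holds them (x axis, % of the gene's length from the 5′ end), as the share of the placed peaks of each class in each bin of 10% (y axis, %), for replicate 1 and replicate 2. Beyond 90% of the gene lie 67.7% and 68.5% of the 3′ UTR peaks.

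Same-strand overlap between the replicates was rare and rose with height. At least 1 bp was shared with a peak of replicate 2 by 360 of the 2501 3′ UTR peaks of replicate 1 (14.4%, 13.1 to 15.8), beside 9.19% of all its peaks. Of the 2841 in replicate 2, 348 met a peak of replicate 1 (12.2%, 11.1 to 13.5), beside 9.62% of all its peaks. CDS peaks were overlapped in 30.5% and 22.0% of cases, and 5′ UTR peaks in 36.9% and 28.8%. The 3′ UTR peaks were overlapped less often than CDS peaks by 16.1 percentage points in replicate 1 (difference -16.1, two-sided Fisher's exact test, adjusted p = 6.80e-57) and by 9.78 in replicate 2 (difference -9.78, adjusted p = 1.66e-30). By the same exact test, the difference from 5′ UTR peaks was -22.5 points (adjusted p = 4.52e-63) and -16.6 points (adjusted p = 6.46e-48).

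At the lowest heights the classes stood apart, and at 10 or more tags the intervals of CDS and 5′ UTR peaks overlapped that of the 3′ UTR peaks. Among peaks of 4 to under 5 tags in replicate 1, 7.48% of 1671 3′ UTR peaks were overlapped (6.31 to 8.84), beside 20.9% of CDS peaks (19.6 to 22.4) and 23.2% of 5′ UTR peaks (20.5 to 26.2). At 5 tags the 3′ UTR share was 18.0%, at 6 tags 34.6%, at 7 to 9 tags 49.2%, and at 10 or more tags 60% (21 of 35, 43.6 to 74.4). In replicate 2 the share went from 5.46% of 1668 peaks at 5 tags through 13.4%, 18.4% and 31.2% to 62.4% (63 of 101, 52.6 to 71.2) at 10 or more. Of all peaks that high, whatever their region, 64.4% were overlapped in replicate 1 and 54.0% in replicate 2. At the heights below 10 tags, in the same rising order, all peaks of replicate 1 were overlapped in 3.81%, 13.1%, 29.3% and 52.9% of cases. For all peaks of replicate 2 these shares were 2.82%, 8.32%, 18.8% and 32.9%. At the lowest heights the 3′ UTR peaks thus stood above all peaks and below CDS and 5′ UTR peaks. With the comparison limited to at least 10 tags, the difference from CDS peaks was -7.91 points in replicate 1 and 3.89 points in replicate 2 (Fisher's exact test, both adjusted p = 0.617), so the call was lost and the direction turned in replicate 2. The difference from 5′ UTR peaks was -14.5 points (exact test, adjusted p = 0.265) and -10.0 points (-10.0014, adjusted p = 0.232). The 35 and 101 peaks of this height leave wide intervals, so no difference was detectable there.

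**Figure D2:**
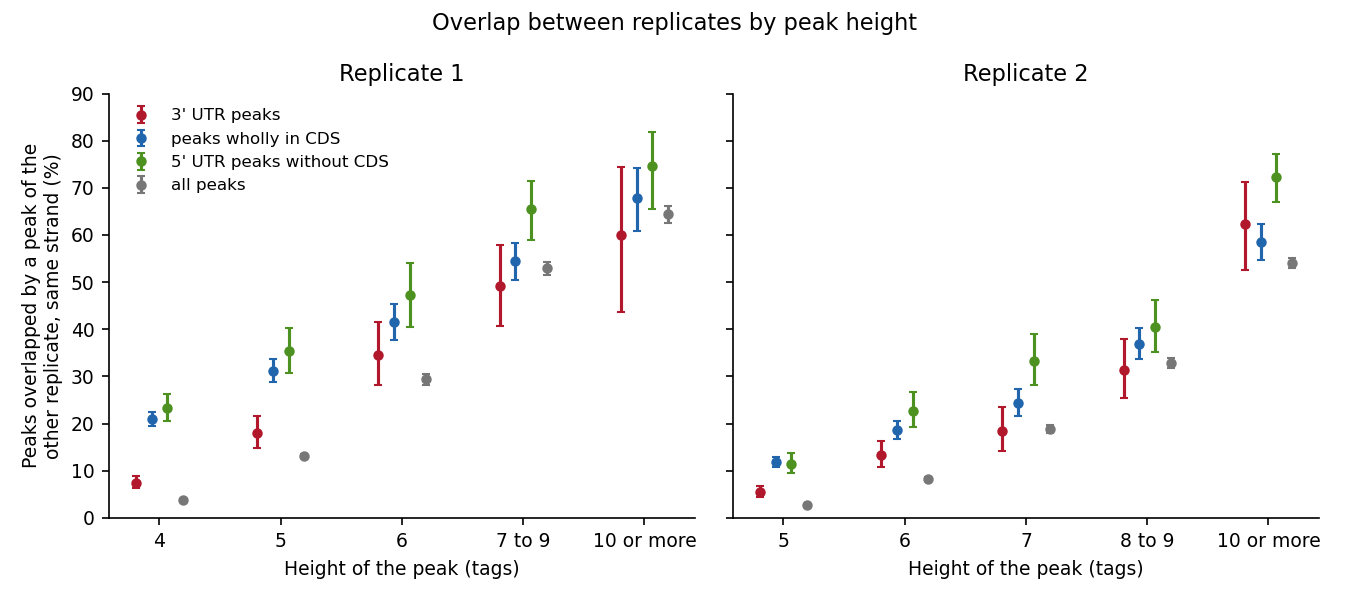
Share of peaks that share at least 1 bp with a same-strand peak in the other list (y axis, %) by height (x axis, tags, a merged peak counted in the range that holds its mean), for 3′ UTR, CDS, 5′ UTR and all peaks of each replicate, with 95% Wilson intervals. The 3′ UTR share goes from 7.48% to 60% (replicate 1) and 5.46% to 62.4% (replicate 2).

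The peaks that did overlap were mostly 3′ UTR peaks of the same gene. The peak of the other replicate was itself a 3′ UTR peak in 338 of 360 cases from replicate 1 and 334 of 348 from replicate 2, and it carried the same gene identifier in 359 and 347. Start and end were the same in 184 pairs. At the 338 sites of replicate 1 the median height was 5 tags there and 6.67 in replicate 2, with 254 higher in replicate 2, 28 equal and 56 lower. Replicate 2 listed no peak under 5 tags, so any site under 5 tags in replicate 1 could only be higher in replicate 2. Where several peaks of replicate 2 overlapped a site, the highest was taken. The count of higher sites is therefore partly set by the lists and the pairing. Across the 338 sites, which share both libraries and the lower limit of each list, Spearman's rho was 0.37 and Pearson's r of the log2 heights 0.47. Both peaks had at least 10 tags at 14 sites.

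**Figure D3:**
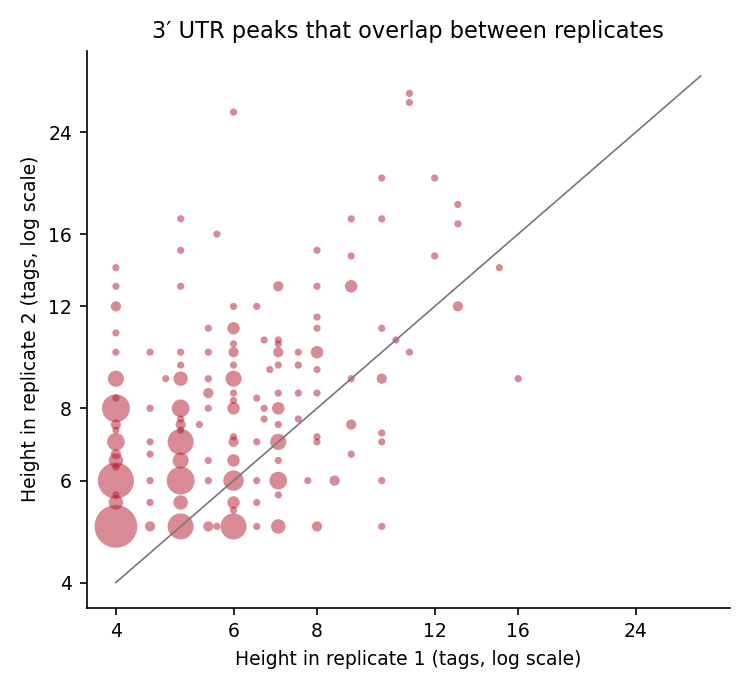
Height in replicate 1 (x axis, tags, log scale) against height in replicate 2 (y axis, tags, log scale) at the 338 sites where a 3′ UTR peak of each replicate overlapped; the area of a point is in proportion to the number of sites and the line marks equal heights. Of the sites, 254 lie above the line, where every site under 5 tags in replicate 1 must lie because replicate 2 listed no peak that low.

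Among the shared sites of the highest tags were mRNAs of metabolism, protein folding, histones and transport. The highest by the lower of both heights was in ADA, adenosine deaminase of purine metabolism, at chr20:44619550-44619600 on the minus strand, with 15 tags in replicate 1 and 14 in replicate 2. It lay 53 nt from the 3′ end of the gene and was the only 3′ UTR peak of ADA in each library, beside 12 and 11 CDS peaks of up to 25 and 66 tags. In P4HB, a protein disulfide isomerase of the endoplasmic reticulum, a peak at chr17:81859950-81860000 had 13 and 18 tags. That peak lay at 3.22% of the gene's length, by the 5′ end, although it was annotated wholly as 3′ UTR. A further P4HB site near the 3′ end had 16 tags in replicate 1 and overlapped a longer peak of 9 tags in replicate 2.

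Histone and chromatin genes followed. H3C11, a histone H3 gene, had 12 and 20 tags at chr6:27871850-27871900. An identifier lying within the RefSeq intervals of both H2AX, the histone variant of the DNA damage response, and DPAGT1 had 4 and 5 such peaks, of which 4 in each library were overlapped, and its highest site stood at 11 and 27 tags. H4C12, a histone H4 gene, had 9 and 13 tags at a single site and no CDS peak in either list. Histone genes were looked at after their values were seen: of 56 with an exonic peak, 8 had a 3′ UTR peak in both replicates (14.3%, beside 8.71% of all named genes), and 4 of these shared a site. The identifier within H2AX and DPAGT1 took no gene symbol and is left out of these counts. H3C4 had 12 and 11 tags at neighbouring peaks that touched without overlapping. In CHD4, the helicase of the NuRD complex, a peak annotated as 3′ UTR and intron had 13 and 12 tags at 97.9% of the gene.

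The remaining sites of the highest 10 were in genes with several 3′ UTR peaks. SEPTIN6, a cytoskeletal GTPase, had 10.5 tags in each library at overlapping peaks of the last part of the gene. SLC12A7, a potassium-chloride cotransporter, had 11 and 10 tags at chr5:1051550-1051600. SERINC5, a membrane protein known as a restriction factor of retroviruses, had 10 and 11 tags at chr5:80142500-80142550. The site in EIF4A1, the RNA helicase of translation initiation, had 13 and 12 tags at 23.5% of the gene and was annotated as 3′ UTR and intron. All 8 and 9 3′ UTR peaks of that identifier lay within EIF4A1 and also within the RefSeq read-through locus SENP3-EIF4A1. An identifier within the RefSeq locus LOC112694756, which overlaps ALDOA, the glycolytic aldolase, had 9 such peaks in each library, of 4 to 27 and of 5 to 28 tags. ALDOA itself held all 9 in replicate 1 and 8 of the 9 in replicate 2. Of the 9, 7 in each library were overlapped, and no CDS peak carried the identifier.

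Several of these peaks lay in genes that the annotation joins with a neighbour. Of the 3′ UTR peaks, 56 in replicate 1 and 59 in replicate 2 (2.24% and 2.08%) lay within one of the 185 read-through loci of RefSeq, and 14 (25%, 15.5 to 37.7) and 13 (22.0%, 13.4 to 34.1) of them were overlapped. The part of such loci in the heights and the overlap was not tested.

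The peaks belonged to 1779 gene identifiers in replicate 1 and 1810 in replicate 2, on average 1.41 and 1.57 a gene. A 3′ UTR peak was found in both lists for 695 identifiers, 39.1% of those of replicate 1 and 38.4% of those of replicate 2. For genes with peaks wholly in CDS the shares were 61.3% and 54.9%, and for those with 5′ UTR peaks 54.4% and 45.0%. Of the 695, 247 (35.5%) had 3′ UTR peaks that overlapped. In the other 448 the nearest peaks lay a median of 300 nt apart and within 500 nt in 266. Among these 266 are 101 genes whose nearest peaks touched without overlapping. Genes with overlapping 3′ UTR peaks are by definition in both lists, so the count of genes could not be lower than the count with a shared site.

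Several 3′ UTR peaks were found in 408 genes of replicate 1 (22.9%, 21.0 to 24.9) and 516 of replicate 2 (28.5%, 26.5 to 30.6), a mean of 25.7% ± 3.9 (SD, n = 2). These genes held 1130 and 1547 of the peaks (45.2% and 54.5%). Neighbouring peaks of a gene were a median of 450 and 400 nt apart. At least 5 peaks were found in 34 and 64 genes, and the most in any gene was 12 and 15. Peaks of genes with several were overlapped in 23.1% (20.7 to 25.6) and 17.9% (16.1 to 19.9) of cases, beside 7.22% (5.97 to 8.71) and 5.49% (4.37 to 6.86) for peaks that were alone in their gene. The inputs were not analysed here, so neither heights nor numbers of peaks were set against the abundance of the mRNA.

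The genes with the most 3′ UTR peaks were SPN, KCNAB2, SERINC5, KIF21B and SLC7A1. SPN, the leukocyte sialoglycoprotein CD43, had 12 peaks in each library, of 4 to 5 tags in replicate 1 and 5 to 15 in replicate 2, and 3 of the sites were shared. SERINC5 had 12 and 10 peaks, of which 5 in each library were overlapped, over 3575 nt. KIF21B, a kinesin motor, had 11 and 10 peaks over 3500 nt, of which 4 were overlapped. KCNAB2, a subunit of voltage-gated potassium channels, had 8 and 15, of which 4 were overlapped, and SLC7A1, the cationic amino acid transporter, had 6 and 15, of which 4 and 3 were. The highest peak of KCNAB2 had 8.5 and 10.8 tags and that of SLC7A1 10 and 9.

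**Figure D4:**
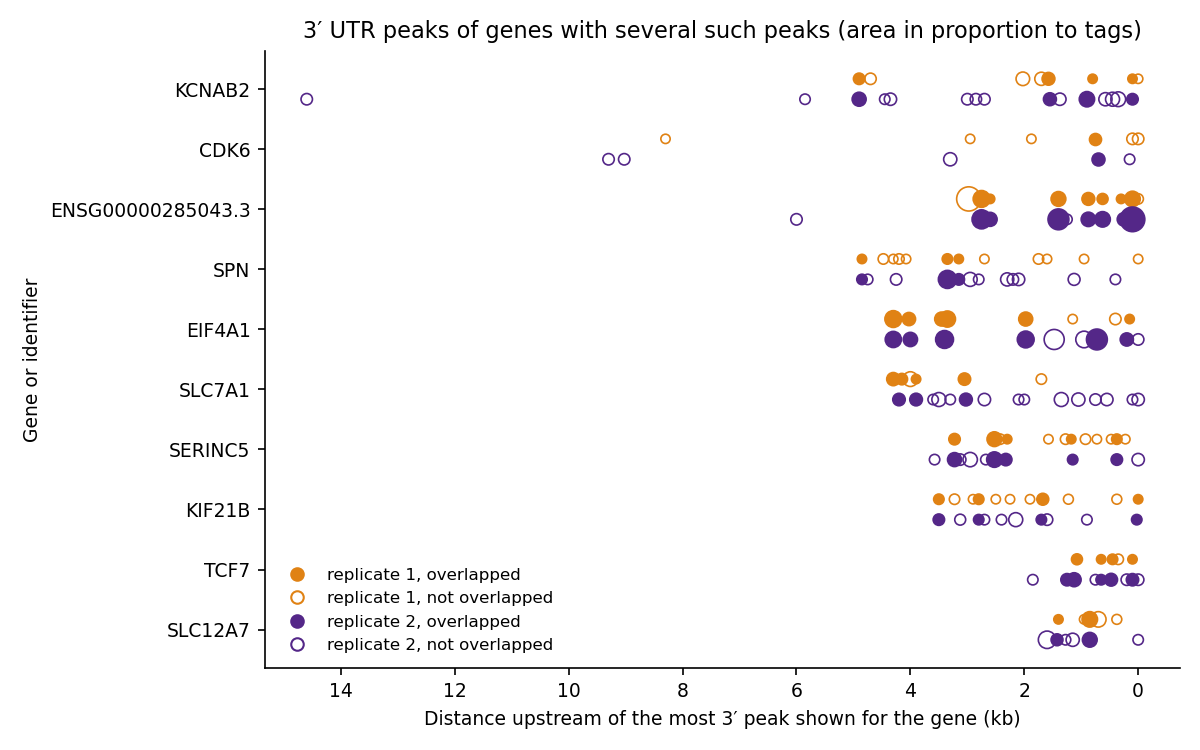
3′ UTR peaks of the 10 named genes or identifiers with at least 5 in each replicate, by distance upstream of the most 3′ peak shown for that gene (x axis, kb), one row a gene with replicate 1 above replicate 2; the area of a point is in proportion to its height and filled points overlap a peak of the other replicate. SERINC5 has 5 filled points of 12 in replicate 1 and of 10 in replicate 2, and TCF7 has 4 of 5 and 5 of 9.

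Of the genes with a 3′ UTR peak, 999 of 1779 in replicate 1 (56.2%, 53.8 to 58.4) also had a peak that lay mainly in CDS. In replicate 2 this held for 1193 of 1810 (65.9%, 63.7 to 68.1). The share over all genes with an exonic peak is not given, so these shares are not read as high or low. A CDS peak was found in 80.1% and 86.0% of genes with several 3′ UTR peaks and in 49.0% and 57.9% of genes with a lone one. In 561 and 514 genes (31.5% and 28.4%) no CDS peak was found in either list. Setting aside genes with peaks in both UTRs, a CDS peak was found in 50.4% of 1451 genes with 3′ UTR peaks and 56.9% of 1045 with 5′ UTR peaks in replicate 1 (difference -6.56 points, two-sided Fisher's exact test over genes, adjusted p = 0.00132). In replicate 2 the shares were 59.3% of 1399 and 65.6% of 1249 (difference -6.24 points, exact test, adjusted p = 0.0011). The difference turned when peaks of p under 0.001 were taken (0.123 points, exact test, adjusted p = 1, and 7.28 points, adjusted p = 0.040) and when at least 10 tags were required (21.1 and 3.70 points, adjusted p = 0.232 and 0.672), so its direction depends on how low peaks are treated.

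Within a gene, 3′ UTR peaks were mostly lower than CDS peaks. Of the 999 genes of replicate 1 with both, the median 3′ UTR peak was higher than the median CDS peak in 169, lower in 544 and equal in 286 (two-sided exact sign test, adjusted p = 8.85e-47). Of the 1193 of replicate 2 it was higher in 201, lower in 761 and equal in 231 (exact sign test, adjusted p = 6.06e-77). The median difference was -0.5 tags in replicate 1 and -1 tag in replicate 2. The 3′ UTR peak of ADA stood above the median CDS peak of that gene in replicate 1 (15 against 8.5 tags) and below it in replicate 2 (14 against 17 tags). NOTCH1, the receptor that drives most T-ALL, had 3′ UTR peaks of 4 tags each at chr9:136494550-136494600 and chr9:136495100-136495150 in replicate 1 and none in replicate 2, beside 28 and 37 CDS peaks of up to 11 and 16 tags.

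The 3′ UTR peaks of genes with a CDS peak were overlapped more often than those of genes without. The shares were 19.1% of 1599 peaks (17.2 to 21.1) against 6.10% of 902 (4.71 to 7.85) in replicate 1, and 14.5% of 2099 (13 to 16.1) against 5.93% of 742 (4.45 to 7.87) in replicate 2. There were 91 genes with a 3′ UTR peak in both lists and a CDS peak in neither. Besides the EIF4A1 and ALDOA identifiers and H4C12, the highest were TSPAN7, a tetraspanin, with 8 and 8.5 tags at overlapping peaks, and an identifier within SGSM3, a Rab GTPase-activating protein. SGSM3 had 4 and 6 peaks of up to 8 and 15 tags, of which 3 in each library were overlapped.

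Identifiers were given gene symbols by their place in RefSeq, which named 2813 of the 2894 with a 3′ UTR peak. Of 7771 named genes with an exonic peak in either list, 677 had a 3′ UTR peak in both, a background of 8.71%. The gene lists below were chosen with results of these data known, so their shares are described and not tested.

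Genes of T-ALL named in the study had the highest share among the lists, with a 3′ UTR peak in both replicates in 5 of 12 (41.7%). The study picked these genes from the same libraries, so this is not independent of the data. BCL11B, a zinc finger factor of T-cell commitment, had peaks of 7 and 4.5 tags in replicate 1 and of 10 and 9 in replicate 2, and the one at chr14:99173950-99174000 in replicate 2 overlapped the peak of 4.5 tags. RUNX1, the core-binding factor subunit, had 3 peaks of 4, 4 and 6 tags in replicate 1, and all were overlapped in replicate 2, at 6, 5 and 7 tags, beside further peaks of 8.33 and 6 tags. DNMT3A, the de novo DNA methyltransferase, had peaks of 5, 4 and 5 tags and of 6, 8 and 5 tags, with 2 shared sites. AKT2, a kinase of PI3K signalling, had 4 peaks of 4 to 5 tags in replicate 1 and 1 of 6 tags in replicate 2, and STAT5B, a cytokine-activated transcription factor, had 5 and 4 tags against 5 tags, in both genes with no shared site. The members of this list had median heights of 4.75 and 6 tags, beside 4 and 5 over all 3′ UTR peaks.

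T-lineage transcription factors had a 3′ UTR peak in both replicates in 6 of 19 (31.6%), namely ETS1, IKZF1, LEF1, TAL1, TCF3 and TCF7. TCF7, which encodes the factor TCF-1 of T-cell development, had 5 peaks of 4 to 5.5 tags in replicate 1, of which 4 were overlapped, and 9 of 5 to 9 tags in replicate 2, of which 5 were. LEF1, its relative, had 1 peak in each at chr4:108048300-108048350, of 4 and 8 tags. IKZF1, the lymphoid factor Ikaros, had 2 and 5 peaks with 2 shared sites. Neither library had a peak over 9 tags in this list.

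T-cell surface and signalling genes had one in both in 4 of 18 (22.2%). CD7 had 5 tags and 6.5 tags at overlapping peaks beside a further peak of 7 tags in replicate 2, and ZAP70, the kinase of the T-cell receptor, had 4 and 6.5 tags at overlapping peaks. CD3G had 4.5 tags in replicate 1 and 16 and 6 in replicate 2, with no overlap, and the chemokine receptor CXCR4 had 5 tags in each at neighbouring bins that touched. CD3D and CD3E had 3′ UTR peaks in replicate 2 only, of 14 tags and of 9.5 and 7 tags. The CD3D peak was overlapped in replicate 1 by a peak of 6 tags that named CDS as well as 3′ UTR.

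Among genes with abundant mRNA, 5 of 20 (25%) had a 3′ UTR peak in both: ACTG1, EIF4A1, ENO1, PKM and TUBB. The peaks of this list had medians of 6 and 10.5 tags, and 8 of its 22 peaks in replicate 1 and 9 of its 20 in replicate 2 were those of the EIF4A1 identifier. All of these also lay within the read-through locus SENP3-EIF4A1, and no CDS peak carried the identifier. The count and the medians of this list thus rest in part on that identifier. ACTG1, cytoplasmic gamma-actin, had 7 and 13 tags at a shared site. Ribosomal protein genes, whose 3′ UTRs are known to be short, had one in both in 2 of 76 (2.63%), and none of their 4 and 11 peaks was overlapped.

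The lists on RNA metabolism varied. Of 32 hnRNP and SR protein genes with an exonic peak, 6 had a 3′ UTR peak in both (18.8%), and HNRNPA2B1, which binds RNA in splicing, had 7 and 10 tags at a shared site with no CDS peak in either list. Of 39 genes of mRNA decay and microRNA action, 5 had one (12.8%), among them AGO2, the slicer Argonaute, and ZFP36L2, a binder of AU-rich elements. The highest peaks of AGO2 had 5 and 6 tags and those of ZFP36L2 had 7 and 6.33 tags, and each gene had 1 shared site. Of 18 cleavage and polyadenylation genes, CPSF7 and PABPC1 had one (11.1%), and CPSF7 had 5 and 10 tags at a shared site. None of 15 genes of the m6A machinery had one in both (0%): replicate 1 had single peaks of 4 tags in ALKBH5, an m6A demethylase, and IGF2BP1, and replicate 2 had one of 5 tags in RBM15B. These 3 genes were named after their values were seen.

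Chaperone genes had one in both in 3 of 15 (20.0%), and each of CALR, CANX and DNAJB1 had a shared site, with 7 and 13 tags in CALR, a calcium-binding chaperone. Cell cycle genes had one in both in 3 of 20 (15%). MKI67, the proliferation antigen Ki-67, had 4 peaks of 5 to 7 tags and 7 of 5 to 10 tags, with 2 shared sites, and CDK6 had 6 and 5 peaks with 1 shared site.

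Of 5 known IGF2BP target genes with an exonic peak, PABPC1, the poly(A)-binding protein, had 3′ UTR peaks in both lists (20.0%), of 4 and 5 tags and of 6 and 7 tags at sites that did not overlap. ACTB, beta-actin, whose 3′ UTR holds the zipcode bound by IGF2BP1, had peaks of 19, 8.5 and 9 tags in replicate 1 and no 3′ UTR peak in replicate 2, where a CDS peak of 24.4 tags was listed. LIN28B had a peak of 5 tags in replicate 2. MYC had no 3′ UTR peak in either list and 9 CDS peaks in each, of up to 9.33 and 17 tags.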

How the data were processed

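iRIP-seq of IGF2BP2 was done in Jurkat cells, and the authors deposited a peak list for each of 2 immunoprecipitates; 2 inputs are not analysed here. According to the methods, the authors aligned 150 bp read pairs with TopHat2, used reads with a unique position, called peaks separately for each library and dropped those that overlapped input peaks. The submitters' processing notes name bcl2fastq, TopHat2 and GRCh38; the annotation release is not given in the sources used here. Heights were deposited as a signal in tags, which for merged peaks equals the mean over bins of 50 nt (tolerance 0.01). The deposited p-value was used as a filter only. Depth is unknown, so heights were not adjusted.

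The members and the lists were chosen with earlier results of these data known. Overlap meant at least 1 bp on the same strand of half-open intervals. Identifiers took the symbol of the only RefSeq protein-coding gene (GRCh38.p14) that held at least 80% of their CDS and UTR peaks, with a margin of 1000 nt where none did; 97.9% of 7980 fell in exactly 1 gene, and 25.9% when shifted by 1000000 nt. Genes named were the 10 with the highest shared peak, the 5 with the most peaks, the 5 highest without CDS peaks, and up to 6 of each of 12 lists (all for T-ALL genes and IGF2BP targets). The 95% Wilson intervals of shares cover only counting error over peaks or genes. They leave out variation between libraries and treat peaks of the same gene as independent. PCR copies among the tags are not independent molecules either. The 10 Fisher's exact tests were adjusted by Benjamini-Hochberg, and the 2 sign tests as a family of their own. Alternatives were another minimum height, a p filter, other membership and overlap rules, the highest peak of each gene and leaving out a library. Functions were tested on simulated data. Python 3.11.15, pandas 2.3.3 and scipy 1.17.1 were used.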

Additional observations from a re-analysis of the deposited data

How the results depend on the processing

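Of 90 alternatives to tested results, 80 kept direction and side of the threshold, and the others came with at least 10 tags or p under 0.001, apart from 1 with CDS-naming peaks included. With at least 10 tags, overlap differed from CDS peaks by -7.91 and 3.89 percentage points (replicates 1 and 2) and from 5′ UTR peaks by -14.5 and -10.0 (-10.0014), none past the threshold, and the CDS peak difference between 3′ and 5′ UTR genes was 21.1 and 3.70 points. With p under 0.001 that difference was 0.123 and 7.28 points, and with CDS-naming peaks included -3.61 in replicate 2 (exact test, adjusted p = 0.0558); with p under 0.001 the difference in share of high peaks from CDS was -2.85 in replicate 1. With at least 10 tags and with p under 0.001, the mean number of peaks was 68 and 435.5, their share of the list 1.33% and 2.31%, the share of genes with several 15.9% and 18.7%, and genes in both lists 16 and 119. The share overlapped was 61.2% and 34.0% under these filters, 10.4% with the highest peak of each gene and 20.3% with touching peaks counted. It was 5.80% at the lowest height and 18.2% with at least 5 tags in both lists (28.3% and 8.03%; no replicate 2 peak was lower), settings chosen after seeing the data. Leaving out a library gave 2501 to 2841 peaks, 1.72% to 2.06% of the list, 22.9% to 28.5% of genes with several and 56.2% to 65.9% with a CDS peak. No paired analysis was possible because each test compared classes of peaks within 1 list, and no list of the inputs was among the files used here. Depth is unknown, and 65.6% and 56.8% of the peaks stood at the lowest listed height.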
